A study of Mus musculus with 15 samples.

Results

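The genes that bring fatty acids into a cell and carry them inside it were followed in 3T3-L1 cells, a mouse preadipocyte line, on day 2 after induction of adipocyte differentiation. They were chosen by name from the known roles of their proteins: Fabp3, Fabp4 and Fabp5 (cytosolic fatty acid binding proteins), Cd36 (a fatty acid translocase of the plasma membrane), Slc27a1 and Slc27a4 (fatty acid transport proteins), Lpl (lipoprotein lipase), Angptl4 (a secreted inhibitor of that lipase) and Dbi (the acyl-CoA binding protein). These are 9 of the 26301 gene numbers counted. Poly(A) RNA was sequenced in 15 libraries of 5 stable lines, with 3 replicates each. The lines were made with pMXs-based retroviral vectors and antibiotic selection. Control (sh-Empty) cells carried a virus without a hairpin, and JMJD1A-KD (sh-Jmjd1a) cells a hairpin against Jmjd1a, the gene now named Kdm3a, whose product is an iron-dependent H3K9 demethylase. The 3 other lines all carried the sh-Jmjd1a hairpin and, from a second virus, one of LacZ (the control), JMJD1A(WT) or JMJD1A(H1122A), in which the site that holds iron is mutated. Both forms of JMJD1A had hairpin-resistant mutations. Whether each line is a pool or a clone is not given in the sources used here. All groups were induced with the same mixture of insulin (1.67 uM), dexamethasone (1 uM) and IBMX (115 ug/mL). sh-Empty and sh-Jmjd1a cells are called the knockdown set, and the lines with LacZ, JMJD1A(WT) and JMJD1A(H1122A) the rescue set. The labels do not say whether replicates were separate cultures, so the p-values measure the spread between these samples, which may be technical.

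Lipoprotein lipase is secreted and releases fatty acids from circulating triglyceride, and ANGPTL4 inactivates it. CD36 and the SLC27A proteins support uptake across the plasma membrane, and the SLC27A proteins also activate fatty acids to acyl-CoA. Inside the cell, FABPs carry free fatty acids and DBI carries acyl-CoA. Several of these genes are textbook targets of the nuclear receptor PPARgamma and mark the passage from preadipocyte to adipocyte.

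Levels are given as CPM, counts relative to a library size that was scaled by the TMM method over all libraries. Libraries held 11437058 to 25523148 counts (median 12916162), and the deepest library was JMJD1A(WT) replicate 3. Kdm3a checked the labels only in part, since it cannot show which added form of JMJD1A is the mutant or separate LacZ from sh-Jmjd1a cells. It was at 169, 171 and 183 CPM in sh-Empty cells and at 128, 127 and 138 CPM in sh-Jmjd1a cells, a log2FC of -0.42 (SE 0.048, adjusted p = 2.91e-08 by edgeR's quasi-likelihood test). It was at 122, 117 and 119 CPM with LacZ, and at 1649 to 1776 CPM with JMJD1A(WT) and 2122 to 2302 CPM with JMJD1A(H1122A). The transcript of the mutant was thus 1.30-fold more abundant than that of the wild type (adjusted p = 3.94e-12). Of the markers of the labelled line, Dlk1, Pdgfra, Thy1 and Col1a1 were present in every group and Cd34 lay near 0. The summed level of the 5 preadipocyte markers was 2683 to 2822 CPM in sh-Empty cells and 4377 to 4532 CPM in sh-Jmjd1a cells. Col1a1 was its largest part, with a mean of 1152 CPM in sh-Empty and 3105 CPM in sh-Jmjd1a cells. Thy1 and Pdgfra also had higher means in sh-Jmjd1a cells, whereas Dlk1 had a lower one (842 against 502 CPM). The summed level of the 5 adipocyte markers was 403 to 429 CPM in sh-Empty cells, 68.9 to 70.7 CPM in sh-Jmjd1a cells, 87.0 to 92.3 CPM with LacZ, 175 to 195 CPM with JMJD1A(WT) and 41.1 to 44.5 CPM with JMJD1A(H1122A), with Lep at or near 0 throughout. The adipocyte sum moved with the results below in both sets. The preadipocyte sum was higher in sh-Jmjd1a than in control cells, but its ranges in the 3 rescue lines (5028 to 5216 CPM with LacZ, 5181 to 5366 CPM with JMJD1A(WT) and 4966 to 5352 CPM with JMJD1A(H1122A)) overlapped. The part of these markers in the results was not tested. In bulk RNA, fewer cells that had begun to differentiate and less RNA per cell cannot be told apart. Summed markers of macrophages, endothelium, skeletal muscle and keratinocytes were each below 8 CPM in every library.

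Fabp3, the binding protein of heart and muscle, had 0 to 7 counts in a library. It had no count in sh-Empty replicate 1 and LacZ replicate 2, which allows a level of up to 0.261 and 0.213 CPM, for counting error only. It did not pass the filter on low counts and was not tested. The other 8 genes passed it, and all of them had at least 252 counts in every library. A deposited count cannot be split between strands, and 81 exon bases of Fabp3 overlap Zcchc17 on the opposite strand. None of the other 8 genes overlapped an exon of another gene. In mm9 they lie apart from each other except for Fabp4 and Fabp5 on chromosome 3, which are described further on, and Lpl and Slc27a1 on chromosome 8. Lpl is at chr8:71404390-71431347 and Slc27a1 at chr8:74092826-74110607, both on the plus strand. Cd36 is at chr5:17287508-17394777 (minus strand), Angptl4 at chr17:33910695-33918520 (minus strand), Dbi at chr1:122009857-122017655 (minus strand) and Slc27a4 at chr2:29658154-29673042 (plus strand).

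Scaled by length, Fabp4 and Lpl were the most abundant of the 9 transcripts in sh-Empty cells. In sh-Empty cells the level in TPM, from the merged exons of each gene, was 3156 ± 68 (SD, n = 3) for Fabp4 and 2080 for Lpl, against 668 for Dbi, 479 for Angptl4 and 440 for Fabp5. Cd36 (48.4 TPM) and Slc27a4 (39.3 TPM) were far lower, with Slc27a1 between them, and Fabp3 was at 0.848 TPM. The order of the upper genes depended on the length used. With the longest protein-coding transcript, a setting chosen after the data were seen, Lpl (2783 TPM) stood above Fabp4 (2551 TPM), and Dbi (1295 TPM) and Fabp5 (1286 TPM) were level, since the merged exons of Fabp5 include intron-retaining transcripts. The gap between these 4 genes and both Slc27a genes or Cd36 stayed under either length.

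In JMJD1A-KD cells the intracellular carriers were the furthest below control cells. The groups are different stable lines, so the hairpin and other differences between the lines cannot be told apart. Of the 8 genes tested, 7 had fallen in JMJD1A-KD cells and none was higher, while 23.9% of the 12272 genes tested were called lower and 22.3% higher. The median log2FC was -0.68 over the 8 genes and 0.00 over all genes. Slc27a4 was the exception.

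Fabp4, the fatty acid binding protein of adipocytes (also called aP2), fell from 560, 532 and 566 CPM in sh-Empty cells to 167, 150 and 140 CPM in sh-Jmjd1a cells. The groups did not overlap, and the log2FC was -1.87 (SE 0.051, adjusted p = 1.63e-20). Fabp5, the broadly expressed binding protein, fell from 436, 429 and 430 CPM to 176, 184 and 164 CPM. Its log2FC was -1.32 (SE 0.044, adjusted p = 1.18e-19). Dbi, which carries acyl-CoA rather than the free acid, changed by nearly as much as Fabp5. It was at 263, 258 and 263 CPM in sh-Empty cells and at 105, 112 and 104 CPM in sh-Jmjd1a cells, a log2FC of -1.30 (SE 0.046, adjusted p = 3.43e-19). Only 0.440% of all genes tested had a lower log2FC than Fabp4, and 1.21% and 1.25% a lower one than Fabp5 and Dbi.

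The other genes tested changed less. Lpl fell from 3933, 3864 and 3884 CPM to 2384, 2357 and 2288 CPM, a log2FC of -0.74 (SE 0.033, adjusted p = 5.1e-17). Cd36 was at 50.6, 53.2 and 53.1 CPM in sh-Empty cells and at 37.3, 32.5 and 33.7 CPM in sh-Jmjd1a cells, with a log2FC of -0.61 (SE 0.073, adjusted p = 5.2e-08). Slc27a1 (FATP1), the transport protein of fat and muscle, fell from 35.4, 33.0 and 33.1 CPM to 23.3, 25.3 and 25.9 CPM, a log2FC of -0.45 (SE 0.083, adjusted p = 5.12e-05). In these 3 genes all sh-Jmjd1a libraries lay below all sh-Empty libraries. Angptl4, the inhibitor of lipoprotein lipase, fell from 449, 413 and 436 CPM to 356, 366 and 329 CPM, a log2FC of -0.32 (SE 0.044, adjusted p = 8.73e-07). Slc27a4 (FATP4), a transport protein found in many tissues, was at 47.9, 44.3 and 51.0 CPM against 45.5, 47.5 and 46.3 CPM. These groups overlapped, and the log2FC of -0.06 (95% interval -0.20 to 0.09, adjusted p = 0.552) did not pass the test.

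**Figure D1:**
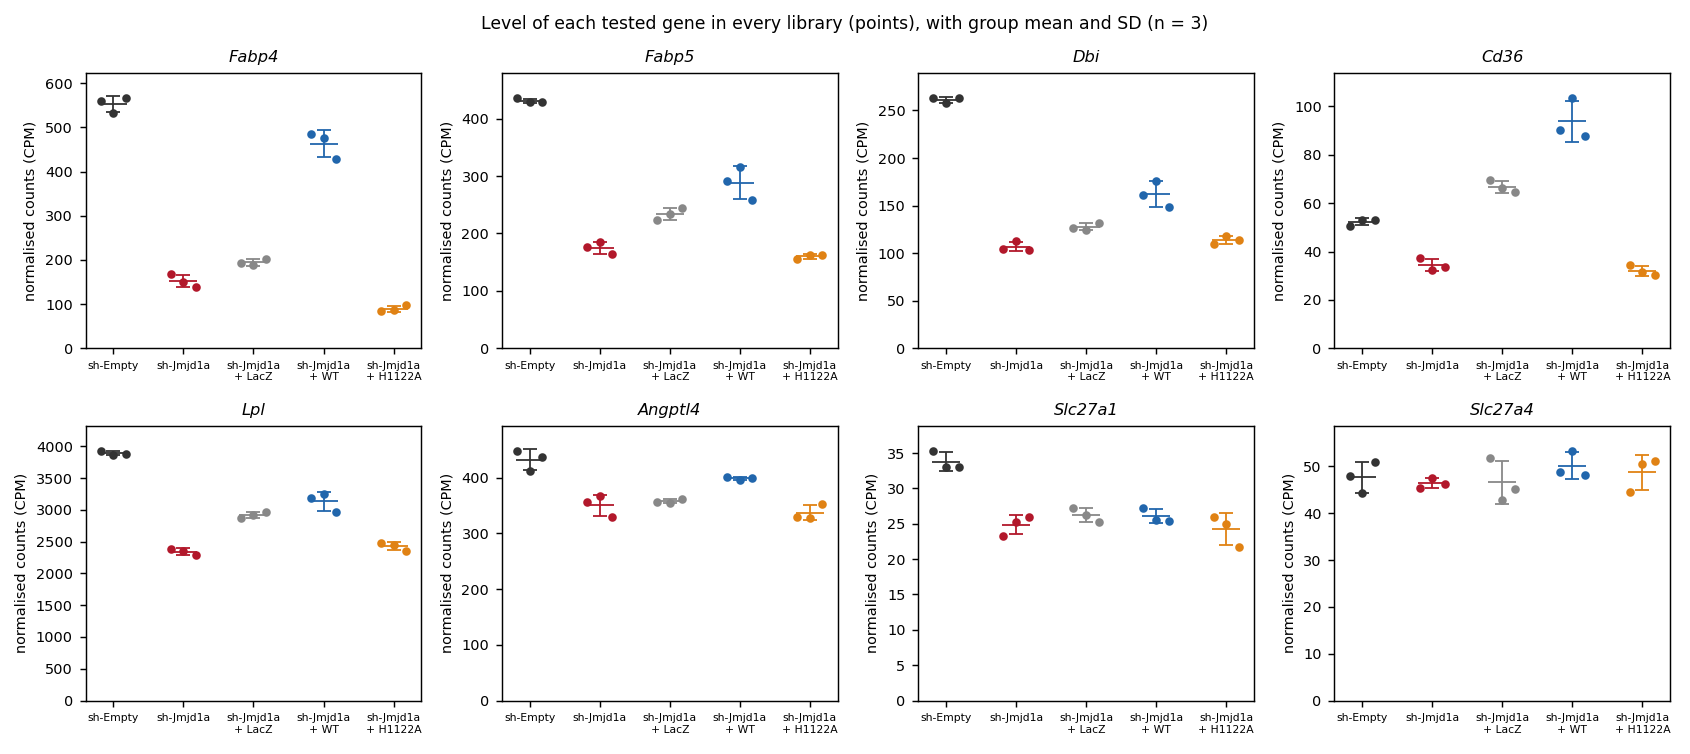
Each panel shows 1 gene, with the level in CPM on the vertical axis from 0 and the 5 groups on the horizontal axis. Points are libraries, bars the group mean and SD (n = 3). Fabp4, Fabp5, Dbi and Lpl have their highest mean in sh-Empty cells, Cd36 in cells with JMJD1A(WT), and Slc27a4 lies between 42.9 and 53.4 CPM in all libraries.

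The rescue lines asked whether JMJD1A brings these transcripts back in cells that keep the hairpin. With JMJD1A(WT), 6 of the 8 genes were higher than with LacZ and none was lower, against 4.98% of 12557 genes called higher and 4.52% called lower. The median log2FC of the 8 genes was 0.23. Fabp4 rose most. It was at 192, 188 and 203 CPM with LacZ and at 485, 476 and 428 CPM with JMJD1A(WT), a log2FC of 1.25 (SE 0.046, adjusted p = 4.3e-23). Cd36 rose from 69.4, 66.3 and 64.6 CPM to 90.2, 103 and 87.8 CPM, a log2FC of 0.48 (SE 0.060, adjusted p = 5.24e-08). The changes of the other genes were smaller. Dbi, at 127, 124 and 132 CPM with LacZ, reached 161, 176 and 149 CPM, a log2FC of 0.34 (adjusted p = 2.16e-06). Fabp5, at 223, 234 and 245 CPM with LacZ, reached 291, 316 and 258 CPM, a log2FC of 0.29 (adjusted p = 0.000237). Both genes were higher in all 3 libraries with JMJD1A(WT) than in any with LacZ.

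Lpl and its inhibitor changed little with JMJD1A(WT) against LacZ. Angptl4 rose from 356, 355 and 361 CPM to 402, 396 and 399 CPM, a log2FC of 0.16 (adjusted p = 0.0025). Lpl was at 2876, 2920 and 2960 CPM with LacZ and at 3186, 3253 and 2963 CPM with JMJD1A(WT). JMJD1A(WT) replicate 3 was thus only just above the highest LacZ library, and the log2FC of 0.10 (adjusted p = 0.0377) was lost with DESeq2 (adjusted p = 0.0648). It was also lost without LacZ replicate 1, 2 or 3 (adjusted p = 0.124, 0.0876 and 0.0867) and without JMJD1A(WT) replicate 1 or 2 (adjusted p = 0.203 and 0.19). Neither transport protein passed the test. Slc27a1 was at 27.3, 26.2 and 25.3 CPM with LacZ and at 27.2, 25.6 and 25.4 CPM with JMJD1A(WT) (log2FC -0.02, 95% interval -0.19 to 0.16, adjusted p = 0.945). The log2FC of Slc27a4 was 0.10 (95% interval -0.05 to 0.24, adjusted p = 0.506).

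With the mutant of the iron site, Fabp4, Cd36 and Fabp5 were the furthest below the wild type. Compared with JMJD1A(WT), 6 of the 8 genes were lower with JMJD1A(H1122A) and none was higher, against 11.7% of all genes tested called lower and 12.1% higher. These were the 6 genes that JMJD1A(WT) had raised over LacZ. The comparisons share the JMJD1A(WT) libraries. Fabp4 was at 85.0, 86.3 and 97.3 CPM with JMJD1A(H1122A), a log2FC of -2.37 against JMJD1A(WT) (SE 0.051, adjusted p = 1.38e-31). Cd36 was at 34.3, 31.5 and 30.3 CPM, a log2FC of -1.54 (SE 0.070, adjusted p = 2.53e-22), and Fabp5 at 155, 163 and 162 CPM, a log2FC of -0.85 (SE 0.055, adjusted p = 1.7e-12). Dbi (log2FC -0.50), Lpl (-0.37) and Angptl4 (-0.25) were lower by smaller amounts, with adjusted p-values of 1.27e-10, 1.64e-12 and 1.12e-06. Slc27a1 (log2FC -0.10, 95% interval -0.28 to 0.08) and Slc27a4 (-0.04, 95% interval -0.18 to 0.11) did not pass the test, with adjusted p-values of 0.482 and 0.766.

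Cells with JMJD1A(H1122A) also lay below the LacZ control. Of the 8 genes, 5 were lower and none was higher, where 4.46% of all genes tested were called lower and 4.78% higher. Fabp4 and Cd36 were again first, with log2FC values of -1.12 (SE 0.053, adjusted p = 3.12e-19) and -1.06 (SE 0.074, adjusted p = 4.3e-15). These were 0.459-fold and 0.478-fold of the LacZ level, and only 0.518% and 0.621% of all genes tested had a lower log2FC. Fabp5 followed with -0.55 (adjusted p = 5.9e-08) and Lpl with -0.27 (adjusted p = 4.91e-08), and in these 4 genes the groups did not overlap. The call for Dbi was less secure. It was at 110, 118 and 114 CPM with JMJD1A(H1122A), a log2FC of -0.16 (adjusted p = 0.04), which was lost with DESeq2 (adjusted p = 0.0653), after thinning of all libraries to the smallest total (0.0554), without LacZ replicate 1, 2 or 3 (0.0588, 0.0506 and 0.177) and without JMJD1A(H1122A) replicate 1 or 3 (0.209 and 0.0966). Angptl4, at 329, 328 and 352 CPM, had a log2FC of -0.09 (adjusted p = 0.141) and did not pass the test.

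**Figure D2:**
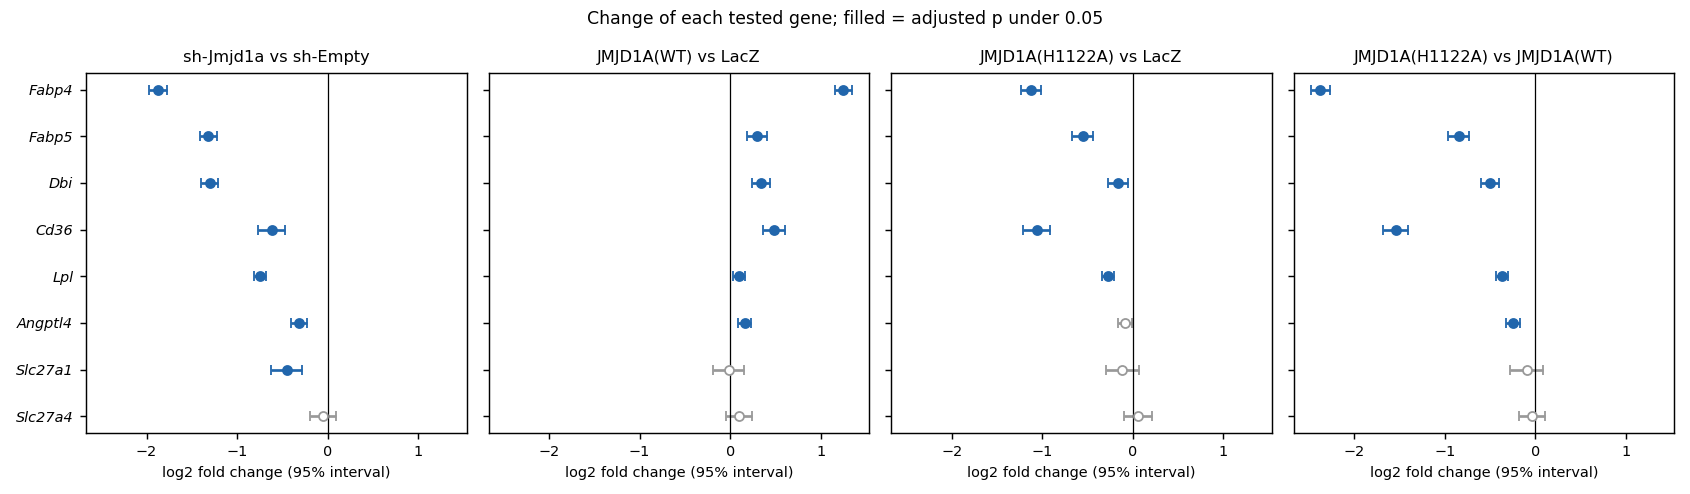
The log2 fold change of each tested gene (horizontal axis) with its 95% interval, in 1 panel per comparison. Filled points have an adjusted p under 0.05. Fabp4 lies farthest from 0 in every panel, with -1.87, 1.25, -1.12 and -2.37 from left to right, and Slc27a4 lies within 0.10 of 0 in all of them.

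Recovery by JMJD1A(WT) was partial for most genes and differed between them. The LacZ and JMJD1A(WT) lines carry a second virus and belong to the other set, so in comparisons with sh-Empty or sh-Jmjd1a cells the second virus, its selection and the set cannot be told apart. In 1 fit of all libraries, 6 of the 8 genes were lower with JMJD1A(WT) than in sh-Empty cells and 1 was higher, where 22.8% of 12758 genes were called lower and 22.8% higher. The mean level with JMJD1A(WT) was 83.8% ± 5.6 (SD, n = 3) of the sh-Empty mean for Fabp4, 80.5% ± 3.9 for Lpl, 66.8% ± 6.7 for Fabp5 and 62.1% ± 5.2 for Dbi. For Slc27a1 it was 77.1% ± 3.0, near the 73.5% ± 4.0 of sh-Jmjd1a cells. Their log2FC values against sh-Empty cells were -0.26, -0.31, -0.59, -0.70 and -0.38, with adjusted p-values from 2.48e-17 to 0.000239. Angptl4 was at 92.2% ± 0.61, a log2FC of -0.12 (adjusted p = 0.0132), which was lost without sh-Empty replicate 1 (adjusted p = 0.0995). Cd36 was the gene that was higher, at 179% ± 16 of the sh-Empty mean (log2FC 0.83, SE 0.063, adjusted p = 1.8e-15).

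The gain over LacZ was also set against the loss on knockdown, each taken within its own set, by testing the sum of the 2 changes. The sum was below 0 for 6 of the 8 genes and above 0 for none, where 15.7% of all genes tested were called below 0 and 17% above. For Fabp5 the loss of 1.32 stood against a gain of 0.29 on the log2 scale (sum -1.01, adjusted p = 8.95e-13), and for Dbi a loss of 1.30 against a gain of 0.34 (sum -0.95, adjusted p = 1.34e-15). Lpl (sum -0.63), Fabp4 (-0.61) and Slc27a1 (-0.46) followed, with adjusted p-values of 1.34e-15, 1.26e-06 and 0.00199. Angptl4, with a sum of -0.15, passed narrowly (adjusted p = 0.0425) and was lost in 8 of the 12 settings that left out 1 library, with adjusted p-values of up to 0.156. For Cd36 a loss of 0.61 stood against a gain of 0.48, and the sum of -0.12 (95% interval -0.32 to 0.07, adjusted p = 0.359) did not pass the test.

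The LacZ line was not level with sh-Jmjd1a cells, although both carry the hairpin and neither carries an added copy of JMJD1A. Of the 8 genes, 5 were higher with LacZ and none was lower, where 3.62% of all genes tested were called higher and 3.36% lower. Cd36 was 1.94-fold higher (log2FC 0.96, SE 0.072, adjusted p = 7.31e-14), a log2FC above that of 99.6% of all genes tested. Fabp5 (log2FC 0.42), Fabp4 (0.35), Lpl (0.32) and Dbi (0.26) were higher by less, with adjusted p-values of 1.71e-06, 0.000336, 7.48e-10 and 0.000691. Kdm3a itself had a log2FC of -0.14 in this comparison (adjusted p = 0.0635). Whether the second virus, its selection or the set goes with these differences cannot be told apart.

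**Figure D3:**
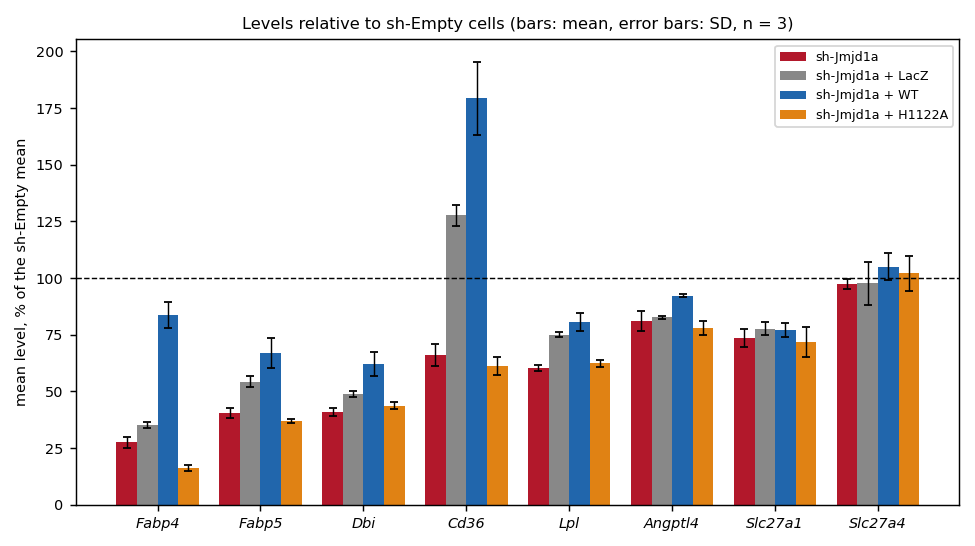
Mean level of each tested gene in the 4 lines with the hairpin, as a percentage of its mean in sh-Empty cells (vertical axis), with the SD (n = 3) as error bars. Cd36 reaches 128% with LacZ and 179% with JMJD1A(WT), while Fabp4 reaches 83.8% with JMJD1A(WT) and 16.2% with JMJD1A(H1122A).

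Ordered over all 5 groups, Cd36 followed a sequence of its own. Its mean rose from 32.0 CPM with JMJD1A(H1122A) and 34.5 CPM in sh-Jmjd1a cells, a step that did not pass the test (adjusted p = 0.53), to 52.3 CPM in sh-Empty cells, 66.8 CPM with LacZ and 93.8 CPM with JMJD1A(WT), and each of these last steps passed the test. Fabp4 was ordered JMJD1A(H1122A), sh-Jmjd1a, LacZ, JMJD1A(WT) and sh-Empty, and all 4 steps passed. Its level with the mutant, 89.5 ± 6.8 CPM, was thus below that of sh-Jmjd1a cells, 152 ± 14 CPM (adjusted p = 4.51e-09). Fabp5 had the same order, but the step from JMJD1A(H1122A) to sh-Jmjd1a cells did not pass (adjusted p = 0.179). Nor did that between these groups in Lpl (adjusted p = 0.403) or Dbi (0.309), where the sh-Jmjd1a mean was the lowest, and all higher steps of these 3 genes passed. The steps from LacZ to JMJD1A(WT) in Lpl (adjusted p = 0.0371) and from JMJD1A(H1122A) to LacZ in Dbi (0.039) passed narrowly. Both are the insecure comparisons described above. In Angptl4 the steps among the 3 lowest groups, JMJD1A(H1122A), sh-Jmjd1a and LacZ, did not pass, and both upper steps passed. In Slc27a1 the 4 lines with the hairpin lay between 24.3 and 26.3 CPM with no step that passed, and sh-Empty cells stood above LacZ (adjusted p = 0.000267). In Slc27a4 no step passed. In this fit the share of all genes that differed in either direction was 44.8% between sh-Empty and sh-Jmjd1a cells, 46.3% between sh-Empty and LacZ, 48.9% between sh-Empty and JMJD1A(H1122A) and 45.6% between sh-Empty and JMJD1A(WT). Among the 4 lines with the hairpin it was lower. sh-Jmjd1a cells differed from LacZ in 6.98% of genes, from JMJD1A(H1122A) in 9.34% and from JMJD1A(WT) in 15.7%. LacZ differed from JMJD1A(H1122A) in 9.24% and from JMJD1A(WT) in 9.37%, and the 2 forms of JMJD1A differed from each other in 23.7%.

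The balance between the 2 main binding proteins shifted with the group. Taken within a library, the ratio of Fabp4 to Fabp5 counts does not depend on the scaling of that library. It was 1.29, 1.24 and 1.32 in sh-Empty cells and 0.952, 0.814 and 0.852 in sh-Jmjd1a cells. In the rescue set it was 0.860, 0.801 and 0.830 with LacZ, 1.67, 1.51 and 1.66 with JMJD1A(WT), and 0.548, 0.530 and 0.601 with JMJD1A(H1122A). The ratio with JMJD1A(WT) lay above that of every sh-Empty library, and the ratio with JMJD1A(H1122A) below that of every other library. Both genes were used to form it, so it adds no separate test. The ratio was not corrected for transcript length, so a value of 1 does not mark equal abundance. In sh-Jmjd1a cells Fabp4 was at 891 TPM and Fabp5 at 183 TPM from merged exons. With the longest protein-coding transcript they were at 723 and 535 TPM. The counts of Fabp5 are also uncertain, as described below.

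**Figure D4:**
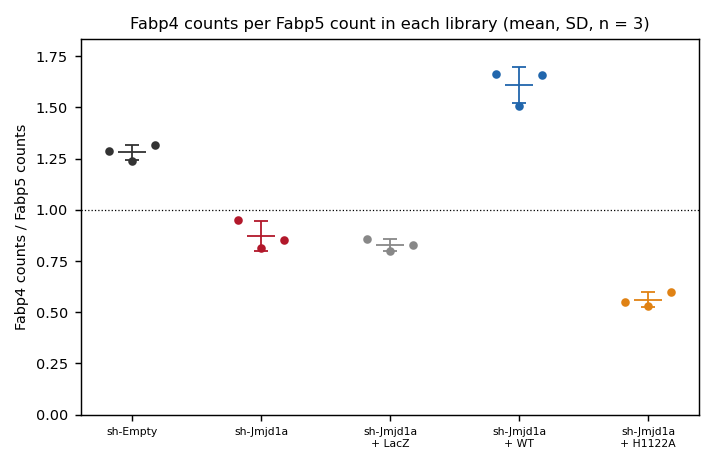
Ratio of Fabp4 to Fabp5 counts in each library (points) with the group mean and SD (n = 3), on an axis from 0. The dotted line marks equal counts, not equal abundance, since transcript length was not corrected for. The mean ratio was 1.28 in sh-Empty cells, 0.872 in sh-Jmjd1a cells, 0.830 with LacZ, 1.61 with JMJD1A(WT) and 0.560 with JMJD1A(H1122A).

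Fabp4 and Fabp5 are neighbours on chromosome 3. In mm9, Fabp4 lies at chr3:10204347-10208576 on the minus strand and Fabp5 at chr3:10012548-10016607 on the plus strand, with 196 kb between their start sites. The family members between and beside them had almost no counts. Pmp2, the myelin binding protein, had 0 to 6 counts in a library, and Fabp9 and Fabp12 each had 0 to 3. Of the other genes within 300 kb of Fabp4, a window chosen with the values of Fabp4 and Fabp5 known, Gm9833, Impa1, Zfand1 and Snx16 could be tested. Impa1, an inositol monophosphatase, was lower on knockdown, where 23.9% of all genes tested were called lower and 22.3% higher. Its log2FC was -0.27 (SE 0.069, adjusted p = 0.00236). The log2FC of the other genes was 0.08 for Gm9833, 0.00 for Zfand1 and -0.32 for Snx16, with adjusted p-values of 0.654, 0.997 and 0.0724. None of the 4 passed the test in any comparison of the rescue set. In those comparisons 4.46% to 11.7% of all genes tested were called lower and 4.78% to 12.1% higher. So few genes do not show whether the changes are limited to Fabp4 and Fabp5 in this region. Fabp5 has near-identical copies elsewhere in the genome. A search of NCBIM37 with its longest coding transcript found 3 other places with a match of at least 150 bases and 95% identity, the longest over 678 bases, and the same search found 1 for Fabp3 and none for Fabp4, Dbi, Lpl, Cd36, Angptl4 or Slc27a4. For Slc27a1 it found 132, all of at most 169 bases. How reads that match several places were counted is not given in the sources used here, so the absolute level of Fabp5 is uncertain.

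**Figure D5:**
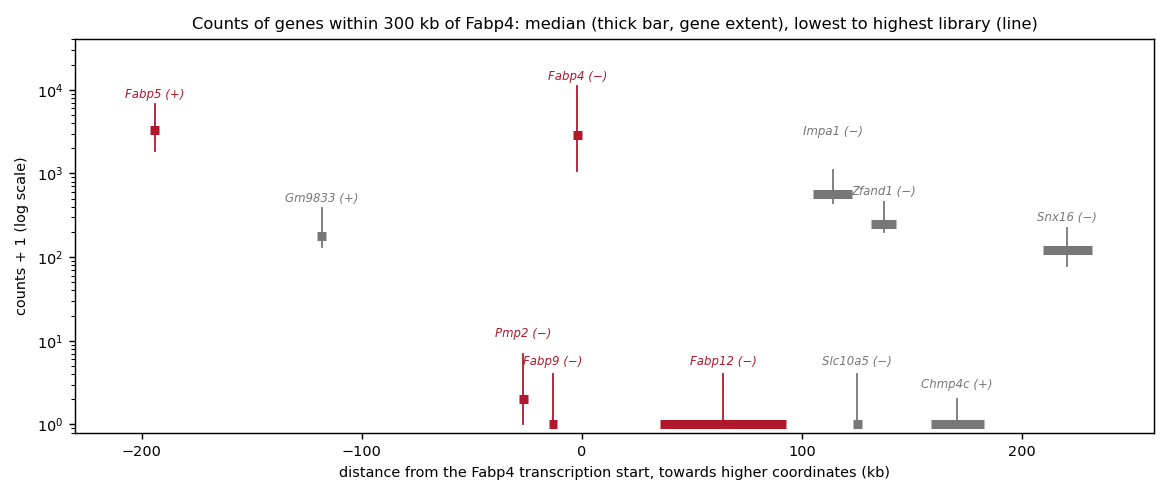
Genes within 300 kb of Fabp4, drawn by distance from its start (horizontal axis, kb) and by counts plus 1 per library on a log axis. Thick bars span the gene at its median over the 15 libraries and thin lines run from the lowest to the highest library. Fabp4 (median 2858 counts) and Fabp5 (median 3335 counts) stand above the neighbours, and Pmp2, Fabp9 and Fabp12 lie at 0 to 6 counts.

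RefSeq promoter windows, 250 bases before to 50 after the start in assembly GRCm38.p6, were found for 5 of the 9 genes. Those of Cd36, whose order over the groups differed from that of the others, and Slc27a4, which passed no test, are shown 5′ to 3′ in the direction of the gene. Capitals mark a CCAAT box and the Sp1 box GGGCGG.
Cd36 (chr5:17835847-17836146, minus strand): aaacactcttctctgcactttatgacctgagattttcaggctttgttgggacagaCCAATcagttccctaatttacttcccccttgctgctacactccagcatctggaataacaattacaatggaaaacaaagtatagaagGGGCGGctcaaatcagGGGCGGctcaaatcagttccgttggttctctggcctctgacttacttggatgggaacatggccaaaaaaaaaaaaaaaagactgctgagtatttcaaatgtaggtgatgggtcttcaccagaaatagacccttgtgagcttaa
Slc27a4 (chr2:29802384-29802683, plus strand): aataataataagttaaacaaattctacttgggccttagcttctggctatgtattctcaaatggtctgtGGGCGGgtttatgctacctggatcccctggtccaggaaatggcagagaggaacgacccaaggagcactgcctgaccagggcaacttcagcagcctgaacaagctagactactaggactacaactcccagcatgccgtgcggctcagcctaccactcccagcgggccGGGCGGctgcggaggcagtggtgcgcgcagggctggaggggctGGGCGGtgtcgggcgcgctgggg
The Cd36 window held 3 CG dinucleotides, against a median of 7 over 32851 promoters, while Slc27a4 held 14. The Cd36 window held a CCAAT box that starts 195 bases before the start, and GGGCGG at 109 and 93 bases before it. These last lie in a stretch of 16 bases that stands there as a pair of exact copies head to tail, a feature not found in the window of Slc27a4. How often such repeats occur over all promoters was not counted. Slc27a4 held GGGCGG 3 times and no CCAAT box. Over all promoters, 37.4% held CCAAT and 35.7% GGGCGG on either strand. TATAAA, which 13.6% of promoters held, was in neither window. The hexamer AGGTCA, the recognition unit of many nuclear receptors, present in 16.3% of promoters, occurred once, on the reverse strand of Cd36. A pair of such hexamers in the same direction 1 base apart, the form of element bound by PPAR and RXR, was in neither window and in 0.0396% of all promoters. A match is a description of the letters, and elements outside these windows were not searched.

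The proteins around these genes were counted from lists made for this purpose. The rest of the FABP and retinoid binding family was nearly absent: of 12 genes only Crabp2 could be tested, with at most 38 counts in a library and a log2FC of -0.18 on knockdown (adjusted p = 0.724). Of the 4 other SLC27A genes only Slc27a3 could be tested (log2FC 0.10, adjusted p = 0.56). Of 8 other acyl-CoA binding proteins, 6 were tested and 3 fell on knockdown, where 23.9% of all genes tested did. These were Scp2, the peroxisomal sterol carrier protein (log2FC -0.47), Acbd6 (-0.28) and Eci2, an enoyl-CoA isomerase (-0.28), with adjusted p-values of 3.47e-10, 0.00466 and 0.000519. None of the 6 passed the test with JMJD1A(WT) against LacZ, where 4.98% of all genes tested were called higher and 4.52% lower. Dbi rose in that comparison. The log2FC of Scp2 there was 0.08 (adjusted p = 0.286).

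Of 17 genes for the maturation, anchoring and cofactors of lipoprotein lipase and for lipoprotein receptors, 8 were tested. On knockdown 5 fell and 2 rose, against 23.9% and 22.3% of all genes tested, and the median log2FC was -0.14. Vldlr, the receptor of triglyceride-rich lipoproteins, rose (log2FC 0.66, SE 0.044, adjusted p = 4.66e-13), as did Lrp1 (0.22). Those that fell included Apoe (-0.86), Sdc1 (-0.29), Sel1l (-0.16) and Furin (-0.12). With JMJD1A(WT) against LacZ, 1 of the 8 rose and 1 fell, against 4.98% and 4.52% of all genes tested. The gene that fell was Vldlr (-0.31, adjusted p = 3.49e-07). With the mutant against JMJD1A(WT), Vldlr rose (0.43, adjusted p = 5.55e-11). Vldlr was therefore opposite in sign to Lpl in each of these comparisons.

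Of 14 CD36 partners and caveola genes, 13 were tested. On knockdown 5 fell and 2 rose, against 23.9% and 22.3% of all genes tested, and the median log2FC was -0.10. Scarb1, a scavenger receptor of the CD36 family, fell most (-1.55, SE 0.087, adjusted p = 1.25e-14), followed by Cavin2 (-0.93, adjusted p = 1.29e-08), Ehd2 (-0.53), Cavin1 (-0.52) and Scarb2 (-0.35). Fyn, a Src family kinase, rose (0.80, adjusted p = 3.65e-09), as did Cav1 (0.19). With JMJD1A(WT) against LacZ 4 rose and 3 fell, where 4.98% and 4.52% of all genes tested did. Cavin2 rose by 1.04 on the log2 scale (adjusted p = 7.36e-12), more than Cd36, whereas Scarb1 rose by 0.34 (adjusted p = 0.0313) and Fyn fell by 0.26 on the log2 scale (adjusted p = 0.0171). With the mutant against LacZ, 4 fell and none rose, where 4.46% and 4.78% of all genes tested did, and Cavin2 (-0.88, adjusted p = 2.12e-06) fell most.

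Of 12 transcription factors known to act on these genes, 11 were tested. On knockdown 6 fell and 2 rose, against 23.9% and 22.3% of all genes tested, and the median log2FC was -0.41. Cebpa (-1.35, adjusted p = 1.34e-16), Nr1h3, the liver X receptor alpha (-1.23, adjusted p = 4.65e-08), and Pparg (-0.89, adjusted p = 6.81e-14) fell most. Cebpd and Hif1a rose (0.59 and 0.39). With JMJD1A(WT) against LacZ, Cebpa (0.81), Nr1h3 (0.58), Pparg (0.36) and Srebf1 (0.21) rose and Cebpd fell (-0.19), where 4.98% of all genes tested were called higher and 4.52% lower. With the mutant against LacZ, Cebpa (-1.05, adjusted p = 1.19e-17) and Pparg (-0.48, adjusted p = 2.46e-07) fell and none rose, where 4.46% of all genes tested were called lower and 4.78% higher. The study named Cebpa, Pparg and Srebf1 from these same libraries. Its list of putative JMJD1A targets, drawn in part from them, also holds Nr1h3, Fabp4, Angptl4, Scarb1, Cavin2, Dlk1, Col18a1, Qsox1 and Ucp2. The direction of all these genes is thus not independent evidence.

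Likeness of pattern was measured by Pearson's r of log2 CPM over the 15 libraries, which fall into 5 groups, so that r mostly reflects the group means. Among 10100 genes that averaged 5 CPM or more, those most like Fabp4 were Dlk1 (r = 0.995), Cebpa (0.994) and Col18a1 (0.991). Dlk1 encodes a preadipocyte surface protein. It was at 842 ± 28 CPM in sh-Empty cells, 502 ± 27 in sh-Jmjd1a cells, 559 ± 11 with LacZ, 755 ± 16 with JMJD1A(WT) and 389 ± 18 with JMJD1A(H1122A) (SD, n = 3), the same order as Fabp4 and over a narrower range. Col1a1, the largest part of the preadipocyte sum, did not follow it and was at 1152 ± 34 CPM in sh-Empty cells and 3105 ± 59 in sh-Jmjd1a cells. The nearest gene was Acsl1, an acyl-CoA synthetase, for Fabp5 (0.990), Qsox1 for Dbi (0.989) and Ucp2 for Angptl4 (0.974). It was Chpt1 for Slc27a1 (0.961), Ipp for Cd36 (0.956) and Akr1e1 for Slc27a4 (0.814). Among the members, Fabp5 was closest to Lpl (0.985) and Dbi (0.967), while r between Cd36 and Dbi was 0.422.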

How the data were processed

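RNA-seq counts from 15 libraries of 3T3-L1 cells were used. Before deposit, reads had been trimmed (fastp), mapped to mm9 (HISAT2) and assigned to genes (featureCounts). The deposited values are the authors' raw counts for each Entrez Gene number, with no normalization. The paper names a directional NEBNext kit and the labels the NEBNext Ultra kit, and the strand setting of the counting is not given in the sources used here. Symbols came from RefSeq (24191 of 26301 gene numbers matched, and the rest held 0.5% of counts), and mm9 coordinates and lengths from GENCODE M1 on NCBIM37.

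Counts were filtered with filterByExpr (minimum count 10), normalized by TMM and tested with the robust quasi-likelihood F test of edgeR 4.0.16 in R 4.3.3 (limma 3.58.1, statmod 1.5.0), with Benjamini-Hochberg adjustment over all genes tested and a threshold of 0.05. The knockdown set (6 libraries) and rescue set (9 libraries) were fitted apart, and all 15 libraries were fitted together for comparisons between the sets and for the order of levels. SE is the log2FC divided by the square root of F. TPM was computed from counts and merged exon lengths for 20088 genes. Replicates of 1 group differed by 2.06 to 5.22 chi-square per degree of freedom, so each was counted. The scripts were tested on simulated data.

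The 9 genes and the lists were chosen with earlier results of these data known. Named genes are the 9, Kdm3a, the 3 largest changes on knockdown in each list with a mean of at least 5 CPM, the genes behind counts of 5 or fewer, family members beside Fabp4, and the genes of most similar pattern. Genes around Fabp4 were named by position. Results for some genes and sequences are left out here. Alternatives were RLE size factors, DESeq2 1.42.0, 2 other filters, the legacy method, a threshold of 0.01, thinned libraries, other sets of libraries, a replicate block, other transcript lengths and each library left out in turn. CUT&Tag and protein sequences were not used here.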

Additional observations from a re-analysis of the deposited data

How the results depend on the processing

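The number of the 9 genes called stayed at 7 for sh-Jmjd1a against sh-Empty, 6 for JMJD1A(H1122A) against JMJD1A(WT) and 5 for LacZ against sh-Jmjd1a whichever library was left out, and ranged from 5 to 6 for JMJD1A(WT) against LacZ, 4 to 5 for JMJD1A(H1122A) against LacZ, 6 to 7 for JMJD1A(WT) against sh-Empty and 5 to 6 for the sum of gain and loss. Of 42 calls for single genes, 38 held their direction and their side of the threshold in all alternatives run for them. The other 4 were Lpl with JMJD1A(WT) against LacZ, Dbi with JMJD1A(H1122A) against LacZ, and Angptl4 against sh-Empty and in the sum. All 4 were lost at a threshold of 0.01, and the cause was not tested. The sum for Angptl4 was also lost after thinning (adjusted p = 0.0847), without sh-Empty replicate 1 or 3 (0.136 and 0.0846), sh-Jmjd1a replicate 3 (0.156), LacZ replicate 2 or 3 (0.0504 and 0.0892) and JMJD1A(WT) replicate 1, 2 or 3 (0.06, 0.0619 and 0.0654). Signs reversed only for differences that had not passed the test. Over the settings without 1 library, the log2FC of Slc27a1 with JMJD1A(WT) against LacZ ran from -0.0483 to 0.00864, that of Slc27a4 with JMJD1A(H1122A) against JMJD1A(WT) from -0.0705 to 0.0237, those of LacZ against sh-Jmjd1a from -0.0775 to 0.0627 for Slc27a4 and from -0.0168 to 0.0638 for Angptl4, and the sum for Slc27a4 from -0.00757 to 0.132. Same-numbered replicates deviated together weakly if at all (r from -0.033 to 0.057 between groups). In the rescue set r was 0.022 to 0.057 for same-numbered pairs of replicates 1 and 2. It was -0.053 to -0.015 for pairs of a replicate 1 with a replicate 2. Whether the numbers pair the samples is therefore not settled by these small values. With a replicate block the counts of genes called were 7, 6, 6, 5, 5, 7 and 6 for sh-Jmjd1a against sh-Empty, JMJD1A(WT) against LacZ, JMJD1A(H1122A) against JMJD1A(WT), JMJD1A(H1122A) against LacZ, LacZ against sh-Jmjd1a, JMJD1A(WT) against sh-Empty and the sum, which changed no call. Without the filter on low counts Fabp3 passed no test. Depth limits Fabp3, with at most 7 counts in a library.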
